A study of Rattus norvegicus with 16 samples.

Results

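The core circadian clock genes examined here are 10 genes chosen by name: Per1, Per2, Cry2, Bmal1, Clock, Nfil3, Dbp, Tef, Nr1d1 and Nr1d2. They are 10 of the 10411 genes that carry 1 gene symbol on the array, and all their probe sets were taken, 15 of 15866. Lung RNA was measured on 16 arrays, 4 per group. The rats were either spontaneously hypertensive (SH) or Sprague Dawley (SD), and each strain was exposed to air or to sulfur dioxide (SO2). SH rats are an inbred strain with high blood pressure, SD rats are an outbred stock, and SO2 is an irritant gas. Neither exposure length, dose, age nor the hour at which lungs were collected is given in the sources used here. The labels call the arrays biological replicates and do not say more, so p-values measure the spread between these arrays.

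The circadian clock is a loop of transcription factors that runs in nearly every cell, including those of the lung and airway epithelium. BMAL1 and CLOCK bind E-box sequences and switch on the Per and Cry genes, whose proteins then block BMAL1 and CLOCK, and they also switch on Nr1d1, Nr1d2, Dbp and Tef. The nuclear receptors NR1D1 and NR1D2 (REV-ERB alpha and beta) repress Bmal1 and Nfil3 through ROR elements, so transcripts of Bmal1 and Nfil3 peak at another time of day than those of Dbp, Per and Nr1d. DBP and TEF, of the PAR bZIP family, activate genes through D-box sequences, and NFIL3 represses through the same sequences.

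Promoter sequences of RefSeq, build GRCr8, were found for all 10 genes, with 12 windows in all because Clock and Nr1d1 have 2 start sites listed. Each window is 300 bases long, from 250 bases before the start site to 50 after it. The promoters below are of a repressor gene, an activator gene and the nuclear receptor gene that links them, printed 5′ to 3′ on the gene's strand with matched motifs in capitals. The Per2 window lies at chr9:99496944-99497243 on the minus strand, that of Bmal1 at chr1:176766078-176766377 on the plus strand and that of Nr1d1 at chr10:84229405-84229704 on the minus strand.
Per2 promoter: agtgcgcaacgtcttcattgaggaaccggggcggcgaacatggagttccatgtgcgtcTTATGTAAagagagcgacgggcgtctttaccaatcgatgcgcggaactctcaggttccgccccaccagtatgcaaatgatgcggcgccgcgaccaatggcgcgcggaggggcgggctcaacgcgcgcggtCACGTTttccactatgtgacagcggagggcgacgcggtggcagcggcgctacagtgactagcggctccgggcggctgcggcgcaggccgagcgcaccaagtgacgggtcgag
Bmal1 promoter: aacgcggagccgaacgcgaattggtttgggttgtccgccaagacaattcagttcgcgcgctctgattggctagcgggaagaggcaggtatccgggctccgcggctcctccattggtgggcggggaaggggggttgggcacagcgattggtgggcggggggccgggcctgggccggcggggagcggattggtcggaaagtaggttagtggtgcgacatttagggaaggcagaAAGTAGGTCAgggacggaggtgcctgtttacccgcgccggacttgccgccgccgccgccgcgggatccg
Nr1d1 promoter: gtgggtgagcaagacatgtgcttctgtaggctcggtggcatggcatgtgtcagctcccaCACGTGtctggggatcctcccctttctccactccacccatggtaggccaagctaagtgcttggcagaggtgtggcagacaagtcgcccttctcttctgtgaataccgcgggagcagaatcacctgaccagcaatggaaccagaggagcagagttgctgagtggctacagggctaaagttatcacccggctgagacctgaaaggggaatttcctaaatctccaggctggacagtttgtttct
In the Per2 window the capitals mark a D-box, TTATGTAA, and a variant E-box, CACGTT, at positions -62 to -57 counted from the start site as position 0. In the Bmal1 window they mark a ROR element (AAN followed by TAGGTCA) at positions -19 to -10. In the Nr1d1 window they mark the E-box CACGTG. Motifs were searched on both strands. CACGTG was present in 6.42% of 33469 promoter windows of this length, CACGTT in 4.83%, TTATGTAA in 0.893%, TTACGTAA in 0.12% and the ROR element in 0.245%. A match also lay in the windows of Tef (CACGTG), of Cry2 (CACGTT) and of the other Nr1d1 start site (CACGTT), so 5 of the 10 genes had one. The share of all genes with a match to any of these motifs was not computed, so this count has no background beside it. All matches are of letters, and binding was not measured.

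Signals below are linear intensities, and where a gene had more than 1 probe set, its brightest on average stands for it. Level differences are on the log2(signal + 16) scale with their standard error (SE), which understates the change of dim probe sets. Of the 15 probe sets, 12 passed a filter that left out the dimmest 30% by mean over all 16 arrays, and every gene kept at least 1. Nfil3 was just inside, at percentile 30.9, and the Nr1d2 probe set just outside was at percentile 26.9. Certain arrays stood apart. SD air replicate 2 had an SH-like signal of the strain-dependent gene Terf2ip, 693.8, while the remaining SD air arrays measured 1982.2 to 2363.4 and the SH air arrays 424.8 to 733.2, so values without it are given beside most results that use SD air. SD air replicate 1 stood apart in the clock genes themselves.

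Median signals of the arrays lay between 250.2 and 281.4, and the actin ratio (3' over 5' signal), a sign of RNA integrity, ran from 1.29 to 3.12. The surfactant protein genes Sftpc and Sftpa1 and the club cell gene Scgb1a1, which mark lung tissue, lay between percentiles 99.96 and 99.99 of mean signal.

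**Figure D1:**
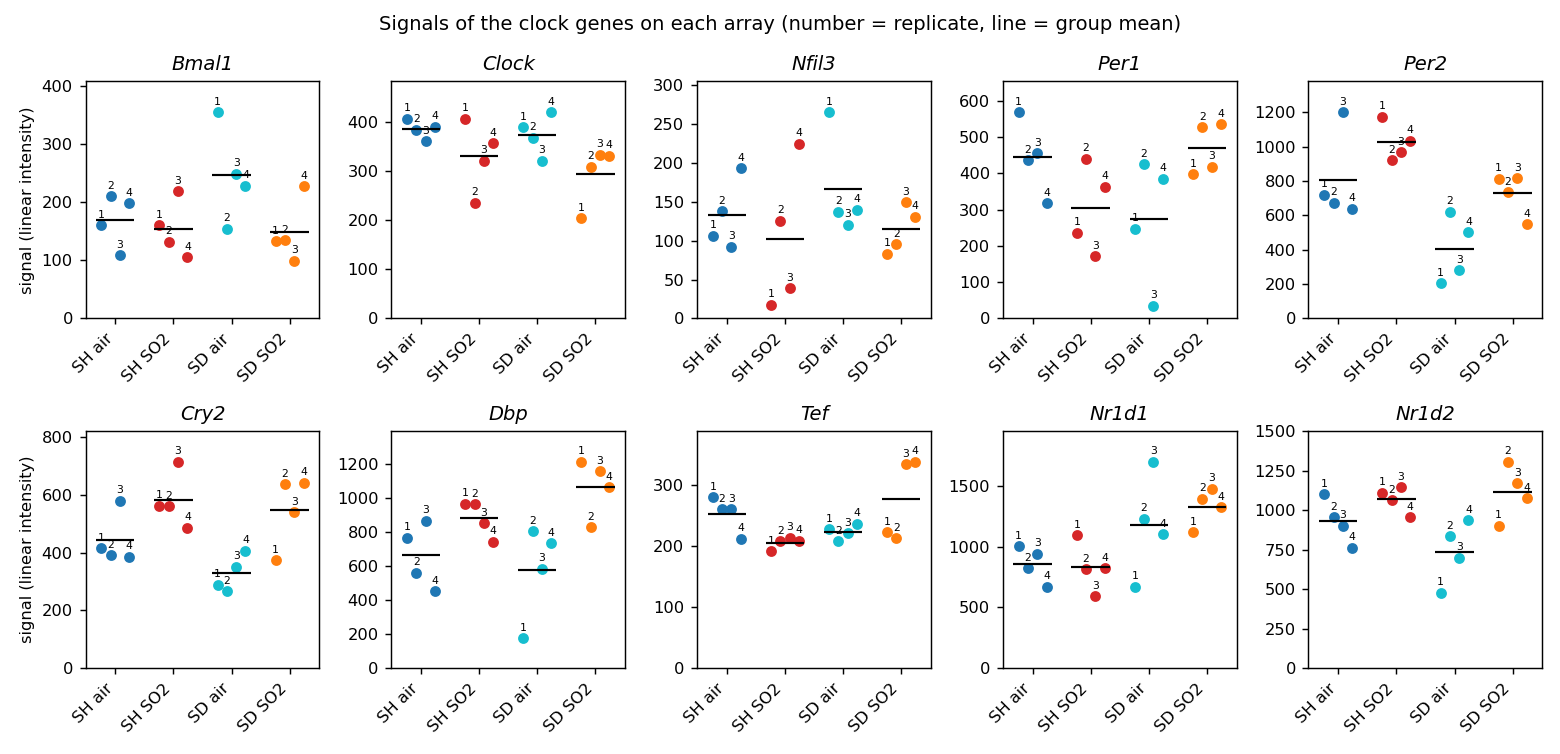
Linear signal of each of the 10 clock genes (y axis, intensity, starting at 0) on each array, by group (x axis), with replicate numbers beside the points and a line at the group mean. SD air replicate 1 has the highest Bmal1 (356) and Nfil3 (265.4) signals and the lowest Dbp (175.1) and Per2 (205.4) signals of the 16 arrays.

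SO2 exposure in SD rats went with higher signals of the Per, Cry, PAR bZIP and Nr1d genes and lower signals of Bmal1, Clock and Nfil3, but no clock gene passed the threshold over all probe sets. All 7 genes of the first group had a log2 change above 0 and all 3 of the others had one below 0, where 53.4% of all probe sets were above 0 and 46.6% below. The median absolute change of the 10 genes was 0.64, against 0.14 over all 11106 probe sets. An excess was not particular to this comparison. For SO2 in SH rats the medians were 0.33 and 0.12, and for the interaction 0.47 and 0.17. Between the strains they were 0.37 and 0.13 in air and 0.32 and 0.14 in SO2. For SO2 in SD rats limma called 0% of probe sets (0 of 12 from clock genes), and its smallest adjusted p over all probe sets was 0.192. An unadjusted p under 0.05 was reached by 6 of the 10 genes and by 8.24% of all probe sets. The members were picked with these results known, so the counts describe them and test nothing.

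Per2, whose protein is a core repressor of the loop, measured 205.4, 622.3, 281.1 and 502.9 in SD air and 812.8, 734.5, 817.9 and 549.8 in SD SO2. The lowest SO2 array lay below the highest air array, so the groups overlapped by 1 array on each side. The difference was 0.94 (SE 0.26, adjusted p = 0.366), or 1.18 without SD air replicate 2 (adjusted p = 0.234). Per1, a second repressor that also responds quickly to hormones and stress, measured 247.1, 425.4, 35.5 and 384.8 in air and 397, 527.6, 418 and 535.2 in SO2. The size of its difference, 1.12 (SE 0.459, adjusted p = 0.552), depended on SD air replicate 3, which was far below the others, and it was 0.42 without that array. Cry2, the partner of the Per proteins, measured 288.9, 265.5, 350.8 and 406.3 in air and 374.7, 637.9, 539.6 and 641.9 in SO2. Its difference of 0.70 (SE 0.185, adjusted p = 0.329) had the smallest p of the 10 genes, with 1 SO2 array inside the range of the air arrays. A dimmer Cry2 probe set, under the filter, averaged 73.2 ± 49.5 (SD, n = 4) in SO2 and 88.6 ± 49 in air, so the probe sets of Cry2 did not show the same direction.

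Dbp, a PAR bZIP activator with one of the widest daily swings among clock outputs, was the only one of the 10 genes whose SD groups did not overlap. It measured 175.1, 807.2, 585.7 and 734.1 in air and 1215, 828.8, 1159.9 and 1063.7 in SO2, where 2.07% of all probe sets were higher in SO2 without overlap, 1.47% were lower and 3.54% were either. The difference was 1.05 (SE 0.32, adjusted p = 0.428), and SD air replicate 1 carried much of it. Without that array it was 0.58, and without SD air replicate 2 it was 1.28 (adjusted p = 0.28). Tef, from the same family, measured 208.7 to 237 in air, and in SO2 it had 2 arrays at 213.3 and 223.6 and 2 at 334.5 and 338.9, giving 0.26 (SE 0.168, adjusted p = 0.705). Without SD SO2 replicate 4 the Tef difference was 0.16.

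Of the nuclear receptors, Nr1d2 measured 476.5, 835.7, 698.3 and 936.5 in SD air and 900.3, 1306, 1168.5 and 1073.9 in SD SO2, with 1 SO2 array below the highest air array. The difference was 0.61 (SE 0.172, adjusted p = 0.366), and 0.69 without SD air replicate 2 (adjusted p = 0.299). A dimmer Nr1d2 probe set that also passed the filter was at 0.65 (SE 0.195, adjusted p = 0.428), or 0.72 without SD air replicate 2, so both tested probe sets of this gene gave like values, and the dimmest averaged 119 ± 36.6 in SO2 and 102 ± 45.1 in air. Nr1d1, its paralog, ranged from 670.5 to 1698.9 in air and from 1120.2 to 1475.4 in SO2, so its SO2 arrays lay inside the air range. The Nr1d1 difference was 0.24 (SE 0.219, adjusted p = 0.796), and it was 0.0018 without SD air replicate 1 and 0.44 without SD air replicate 3.

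The opposite-phase genes were lower in SD SO2. Bmal1, the non-redundant activator of the loop, measured 356, 154.9, 249.8 and 228.8 in air and 133.7, 135.4, 99.5 and 228.4 in SO2. SD SO2 replicate 4 sat among the air arrays and the other 3 lay below all of them. The difference was -0.67 (SE 0.283, adjusted p = 0.562), or -0.86 without SD air replicate 2 (adjusted p = 0.475). Clock, its dimer partner, had signals of 321.4 to 421.1 in air and 204.9 to 334.3 in SO2, a difference of -0.35 (SE 0.173, adjusted p = 0.619) that was -0.19 without SD SO2 replicate 1. The dimmer Clock probe set that passed the filter was at -0.049 (SE 0.208), and the dimmest, under the filter, averaged 88.6 ± 34.4 in SO2 and 115 ± 93.9 in air. Nfil3, the D-box repressor, measured 265.4 on SD air replicate 1 and 120.7 to 139.7 on the other air arrays, against 83.1 to 149.8 in SO2. Its difference of -0.44 (SE 0.455, adjusted p = 0.837) became -0.21 without that air array. Without SD air replicate 2 the other values in SD rats were 1.45 for Per1, 0.61 for Cry2, 0.23 for Tef, 0.29 for Nr1d1, -0.35 for Clock and -0.50 for Nfil3.

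**Figure D2:**
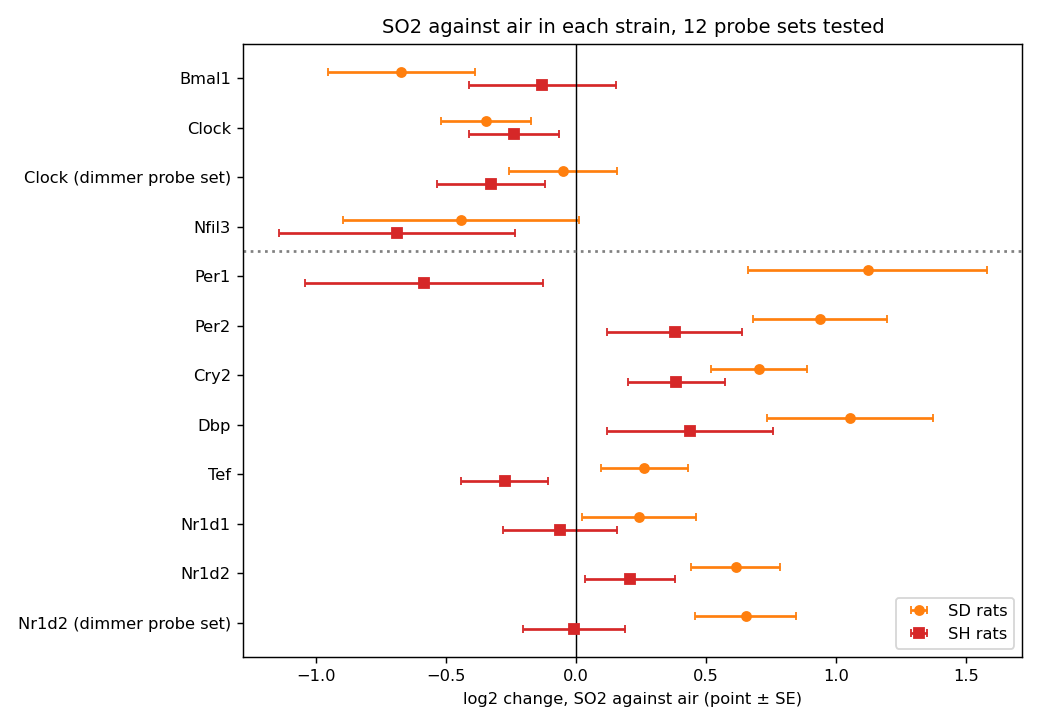
Log2 change of SO2 against air (x axis) for the 12 clock probe sets tested (y axis), in SD rats (circles) and SH rats (squares), with bars of 1 standard error. Genes above the dotted line are Bmal1, Clock and Nfil3. In SD rats all the main probe sets above the line are below 0 and all those under it are above 0, while SH rats have Per1, Tef and Nr1d1 below 0.

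For markers of other tissue components limma called 0 genes between the same SD groups. At an unadjusted p under 0.05 were 2 muscle genes, 2 T and natural killer cell genes and 1 ciliated cell gene. This was Tekt1 (0.56, SE 0.169, adjusted p = 0.428), and of the 3 ciliated cell genes 1 was above 0 and 2 below. Alveolar type II genes (3 above 0, 2 below), endothelial genes (2 above, 1 below) and the club cell gene (above 0) had 0 at such a p. Of all probe sets, 8.24% had such a p. Cardiac and skeletal muscle genes, 9 of 13 listed genes tested, were below 0 in 8 of 9 with a median of -0.35 (-0.38 without SD air replicate 2), against 46.6% of all probe sets below 0, and their summed signal ran from 2082 to 3525 in SO2 and from 2769 to 5596 in air. T and natural killer cell genes, 9 of 13 tested, were above 0 in 9 of 9 with a median of 0.28, against 53.4% of all probe sets, and summed to 3164 to 5012 in SO2 and 3010 to 4354 in air. No gene of either list was at a signal of 0 on any array, and 3 and 4 genes lay under the filter. The actin ratio ran from 1.4 to 1.76 in SD air and from 1.47 to 2.94 in SD SO2. With that ratio as a covariate Per2 was at 0.91, Dbp at 1.08 and Bmal1 at -0.62, while Nr1d1 was at 0.13. The part of the cell markers in the clock values was not tested, and in whole lung fewer cells of a type and less RNA per cell cannot be told apart.

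In SH rats no clock gene passed the threshold for SO2 against air. Limma called 0% of probe sets, 0 of the 10 genes and 4.84% of all probe sets had an unadjusted p under 0.05, and 4 of the 7 Per, Cry, PAR bZIP and Nr1d genes were above 0 (53.6% of all probe sets, with 46.4% below). By their brightest probe sets the SH groups overlapped for all 10 genes, and did not for 4.17% of all probe sets. The dimmest Clock probe set, under the filter and not tested, was higher in SO2 without overlap. It ran from 40.8 to 65.2 in SH air and from 67.2 to 341.8 in SH SO2. Per2 measured 720.9, 673.2, 1202 and 637.9 in SH air and 1174.3, 921.9, 967.9 and 1036.1 in SH SO2, a difference of 0.38 (SE 0.26, adjusted p = 0.949), or 0.58 without SH air replicate 3, whose signal lay above every SO2 array. Cry2 was highest on that array among the air arrays too, at 579.5 against 386.5 to 416.1, and measured 486.8 to 714.8 in SO2, a difference of 0.39 (SE 0.185). The dimmer Cry2 probe set, under the filter, averaged 110 ± 57.5 in SO2 and 118 ± 36.7 in air. Dbp measured 769, 561.9, 868.1 and 453.9 in air and 966.7, 963.8, 853.9 and 743.2 in SO2, overlapping on 2 arrays of each group, at 0.44 (SE 0.32).

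Per1 and Tef were at negative values in SH rats. Per1 measured 568.8, 435.3, 455.1 and 317.8 in air and 236.6, 440.6, 171.2 and 363.6 in SO2, a difference of -0.59 (SE 0.459). Tef ran from 212.7 to 280.6 in air and from 191.8 to 214.3 in SO2, at -0.28 (SE 0.168), so its groups overlapped by 1 array on each side. Nr1d2 was at 0.21 (SE 0.172) and its dimmer probe set at -0.0091 (SE 0.195), and Nr1d1 was at -0.063 (SE 0.219). Without SH air replicate 4 Dbp was at 0.28 and Nr1d2 at 0.12, and without SH SO2 replicate 3 Per1 was at -0.36.
The opposite-phase genes were Bmal1 at -0.13 (SE 0.283), Clock at -0.24 (SE 0.173) and Nfil3 at -0.69 (SE 0.455). The dimmer tested Clock probe set was at -0.33 (SE 0.208). Without SH SO2 replicate 2 Clock was at -0.093. Nfil3 was at -0.22 without SH SO2 replicate 1 and at -1.17 without SH SO2 replicate 4. Nfil3 spread widely in SH SO2, with signals of 17.7, 125.8, 38.9 and 224.5, and the lowest of them lay under the 10th percentile of its array, 22.5.

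The difference between the strains' responses was not called for any clock gene. Limma called 0% of probe sets in this interaction test, and 2 of the 10 genes and 4.65% of all probe sets had an unadjusted p under 0.05. All 7 Per, Cry, PAR bZIP and Nr1d genes were below 0, meaning a lower SO2 change in SH than in SD rats, against 49.8% of all probe sets, with 50.2% above 0. The Per1 interaction was -1.71 (SE 0.649, adjusted p = 0.981) and ranged down in size to -1.01 when single arrays were left out. For Tef it was -0.54 (SE 0.237, adjusted p = 0.981). Dbp was at -0.62 (SE 0.452), or -0.14 without SD air replicate 1, and Per2 at -0.56 (SE 0.367), or -0.29 without that array. Bmal1 was at 0.54 (SE 0.4) and Clock at 0.11 (SE 0.244), but the dimmer tested Clock probe set was at -0.28 (SE 0.294). Nfil3 was at -0.25 (SE 0.643), on the same side as the 7 genes. The dimmer tested probe set of Nr1d2 was at -0.66 (SE 0.276, adjusted p = 0.981). Without SD air replicate 2 the interaction was -2.04 for Per1, -0.51 for Tef, -0.84 for Dbp, -0.80 for Per2 and 0.73 for Bmal1. In the same test muscle genes were above 0 in 7 of 9 (median 0.48, 4 at an unadjusted p under 0.05, 0 called), and T and natural killer cell genes below 0 in 8 of 9 (median -0.16, 1 at such a p, 0 called). Their part was not tested. The interaction without SD air replicate 1 was -0.065 for Nr1d1 and -0.22 for Nr1d2, and for Cry2 it ran from -0.48 without SD SO2 replicate 1 to -0.19 without SH air replicate 3. These values share their SD and SH arrays with the comparisons within each strain.

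In air, Per2 had the smallest p of the clock genes between the strains. Its SH signals, 637.9 to 1202, all lay above its SD signals, 205.4 to 622.3, where 1.96% of all probe sets were higher in SH rats without overlap, 2.06% were lower and 4.02% were either. The difference was 1.05 (SE 0.26) and did not pass over all probe sets (adjusted p = 0.19), among which limma called 0% and had 6.38% at an unadjusted p under 0.05. The highest SD signal, 622.3, belonged to SD air replicate 2, the array with SH-like Terf2ip. Without that array the Per2 difference was 1.30 and passed (adjusted p = 0.0134), and 0.774% of probe sets were called. Over the alternatives tried, the adjusted p of Per2 ran from 0.0134 to 1, and it passed only without that array. Per1 was at 1.03 (SE 0.459, adjusted p = 0.738), or 0.33 without SD air replicate 3, and Cry2 at 0.42 (SE 0.185, adjusted p = 0.738). Dbp was at 0.35 (SE 0.32) and turned to -0.13 without SD air replicate 1. Bmal1 was at -0.48 (SE 0.283), or -0.30 without SD air replicate 1, Nr1d2 at 0.36 (SE 0.172), Tef at 0.16, Clock at 0.045, Nfil3 at -0.28 and Nr1d1 at -0.39 (SE 0.219). With SD air replicate 1 left out Nfil3 was at -0.046, Nr1d2 at 0.17 and Nr1d1 at -0.63, and without SD air replicate 3 Nr1d1 was at -0.19. Without SH air replicate 4 Nfil3 was at -0.46, and without SD air replicate 4 Clock was at 0.10. The dimmer tested probe set of Nr1d2 was at 0.49 (SE 0.195, adjusted p = 0.675), or 0.56 without SD air replicate 2. So 7 genes were above 0 and 3 below, where 50.3% of all probe sets were above and 49.7% below. Without SD air replicate 2 these values were 1.36 for Per1, 0.33 for Cry2, 0.58 for Dbp, -0.67 for Bmal1, 0.43 for Nr1d2, 0.13 for Tef, 0.039 for Clock, -0.34 for Nfil3 and -0.34 for Nr1d1.

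In SO2, Nr1d1 had the smallest p of the clock genes between the strains. Its SH signals of 1094.7, 814.1, 590 and 823.4 all lay below its SD signals of 1120.2, 1394.5, 1475.4 and 1325.6, where 2.76% of probe sets were lower in SH rats without overlap, 2.82% were higher and 5.58% were either. The difference was -0.69 (SE 0.219, adjusted p = 0.181). Per2 was again higher in SH rats, with 921.9 to 1174.3 against 549.8 to 817.9 and no overlap, at 0.49 (SE 0.26, adjusted p = 0.542). Limma called 0.81% of probe sets here and none of the 12 from clock genes, while 2 of the 10 genes and 10.1% of all probe sets had an unadjusted p under 0.05. Tef was at -0.37 (SE 0.168, adjusted p = 0.433), Per1 at -0.68 (SE 0.459), Nfil3 at -0.52 (SE 0.455) and Dbp at -0.26 (SE 0.32). Single arrays moved some of these values, and Nfil3 was at -0.054 without SH SO2 replicate 1 and at -0.999 without SH SO2 replicate 4, and Per1 at -0.45 without SH SO2 replicate 3. Clock (0.16), Cry2 (0.098), Bmal1 (0.059) and Nr1d2 (-0.049) lay within 1 SE of 0. In all, 4 genes were above 0 and 6 below, against 50.1% and 49.9% of all probe sets. Per2 therefore had higher SH than SD signals in both exposures without overlap, and Nr1d1 had lower means in both, without overlap in SO2 alone. Muscle genes were higher in SH rats in 8 of 9 (median 0.62), with 5 at an unadjusted p under 0.05 and 1 called, Tcap, a sarcomere protein gene (1.08, SE 0.245, adjusted p = 0.0407), and they summed to 3192 to 4813 in SH SO2 and 2082 to 3525 in SD SO2. T and natural killer cell genes were lower in SH rats in 9 of 9 (median -0.14), with 2 at an unadjusted p under 0.05 and 0 called, and summed to 2951 to 3574 and 3164 to 5012. These were Prf1, the pore-forming perforin (-0.84), and Nkg7, a cytotoxic granule gene (-0.72). Their part in the clock values was not tested.

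Array by array, Bmal1 ran against Per2. On 14 of 16 arrays the 2 genes lay on opposite sides of their own means, and Pearson's r was -0.79 (Spearman's rho -0.735). With a two-sided permutation test of 100000 resamples, p was 0.00016 for r and 0.00166 for rho. After Benjamini-Hochberg adjustment over 21 pairs these were 0.00336 and 0.0349. The genes and tests were chosen with earlier results of these data known, so p-values of the correlations describe the pairs and carry no independent test. On deviations from the group means, permuted within groups, r was -0.763 (adjusted p = 0.0267), so the relation was also present among arrays of the same group. Without the 2 arrays farthest from the Bmal1 median, SD air replicate 1 and SD SO2 replicate 3, r was -0.709 over 14 arrays (unadjusted permutation p = 0.00314). It was -0.615 over the 8 SH arrays, -0.917 over the 8 SD arrays and -0.796 without SD air replicate 2. Without SD air replicate 1 alone it was -0.673, and this pair no longer passed the adjusted threshold.

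Bmal1 and Dbp gave r = -0.692 (rho = -0.541), with adjusted permutation p-values of 0.0206 for r and 0.228 for rho. This relation rested on few arrays. Without the same 2 arrays r was -0.388 (unadjusted permutation p = 0.172), and on deviations from the group means it was -0.558 (adjusted p = 0.207). Without SD air replicate 2 it was -0.691. The arrays nonetheless lay on opposite sides of the 2 means 14 times in 16. These were the 2 pairs of 21 that passed. Without SD air replicate 1 the adjusted threshold was passed by 0 of the 21 pairs, with r of -0.673 for Bmal1 and Per2 and -0.483 for Bmal1 and Dbp.

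Of the other pairs, Bmal1 gave r of -0.594 with Nr1d2 (adjusted p = 0.0955), -0.446 with Per1, -0.371 with Cry2, -0.235 with Nr1d1 and -0.055 with Tef, each by the same permutation test. Nfil3 gave -0.528 with Per2, -0.527 with Nr1d2, -0.518 with Dbp and -0.501 with Cry2, with adjusted permutation p-values of 0.155 to 0.17. Its lowest signals, on SH SO2 replicates 1 and 3, moved these values, and without those 2 arrays r with Dbp was -0.693 and with Per2 -0.419. Clock, whose transcript is known to cycle weakly, gave r from -0.439 (with Dbp) to 0.108 (with Tef). In all, 18 of the 21 values were below 0 over the 16 arrays, and 11 were below 0 on deviations from the group means. The shares below 0 or passing among other gene pairs were not computed, so these counts only describe the 21 pairs. Arrays of a group share strain and exposure, and pairs share genes, so the 21 values are not independent.

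**Figure D3:**
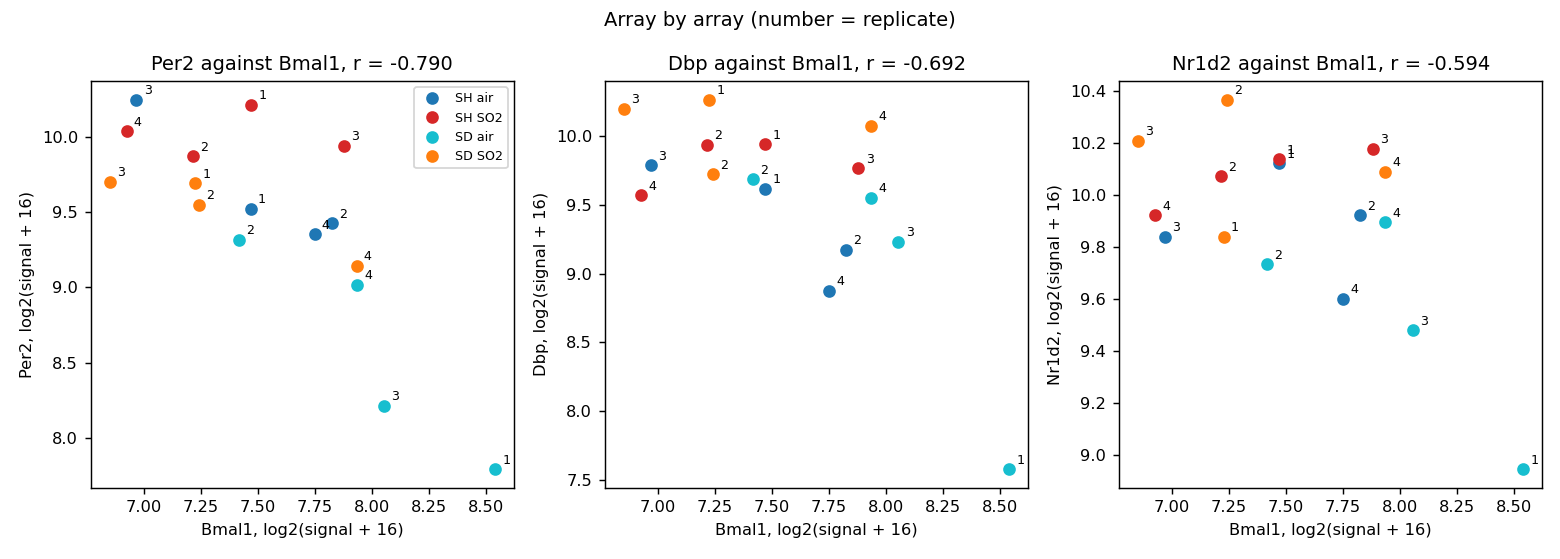
Per2, Dbp and Nr1d2 (y axes) against Bmal1 (x axis), each as log2(signal + 16), 1 point per array coloured by group with replicate numbers. Arrays with higher Bmal1 have lower Per2 (r = -0.79), whereas SD air replicate 1, at the lower right, lies far from the other points for Dbp (r = -0.692) and Nr1d2 (r = -0.594).

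The genes above their own means were also counted on each array. On SD air replicate 1, 0 of the 7 Per, Cry, PAR bZIP and Nr1d genes and 3 of the 3 opposite-phase genes lay above their means over 16 arrays. SH air replicate 4 had the same split, 0 of 7 and 3 of 3. At the other end were SD SO2 replicate 2, with 6 of 7 and 0 of 3, and SD SO2 replicate 3, with 7 of 7 and 1 of 3. SD SO2 replicate 4 had 6 of 7 and 2 of 3, and SH SO2 replicate 4 had 5 of 7 and 2 of 3, so high values of both kinds of gene also occurred on the same array. The SD air arrays had 0, 3, 1 and 2 of the 7 above their means and the SD SO2 arrays 4, 6, 7 and 6. The SH arrays had 5, 3, 5 and 0 in air and 5, 5, 4 and 5 in SO2. The title numbers of the SD air arrays are 45, 46, 54 and 55 and those of the SD SO2 arrays 47 to 50, and what these numbers record is not stated. With these numbers as a covariate, SD differences were 0.93 for Per2, 1.11 for Dbp and -0.68 for Bmal1.

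**Figure D4:**
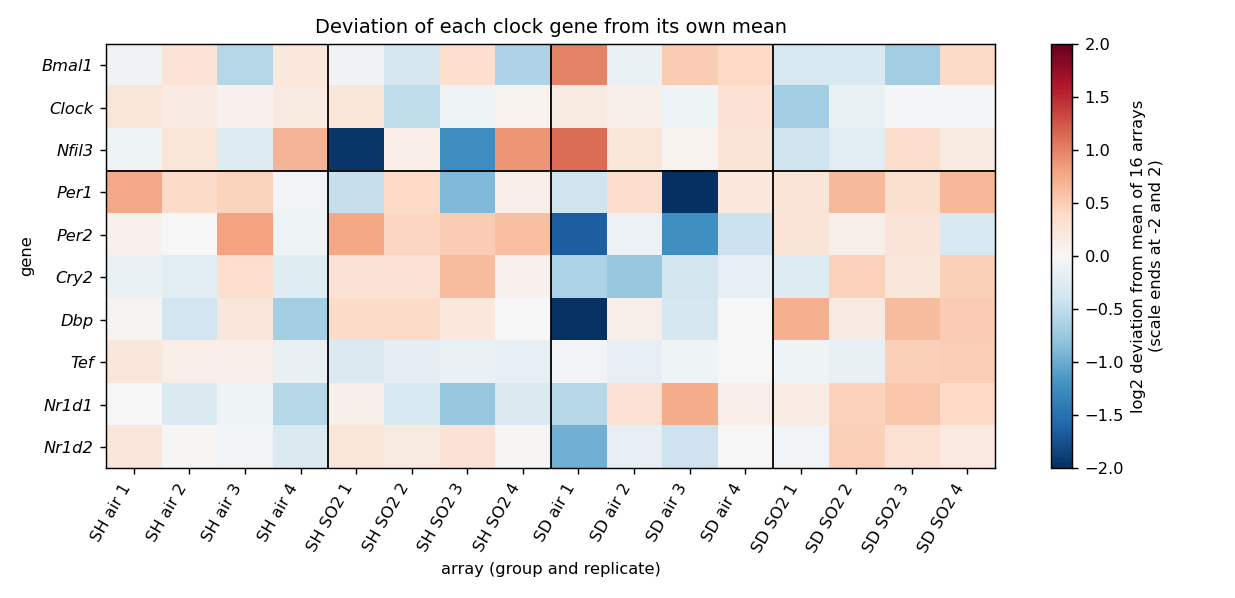
Deviation of each clock gene (rows) from its own mean over the 16 arrays, on the log2(signal + 16) scale, for each array (columns, by group). Red is above the mean and blue below, and the colour scale ends at -2 and 2. SD air replicate 1 is above the mean for Bmal1, Clock and Nfil3 and below it for the other 7 genes.

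All tested genes other than Dbp were ranked by how closely their deviations from the group means followed those of Dbp over the 16 arrays, 8059 genes in all. Per2 was 5th from the top (r = 0.78), Nr1d2 24th (0.71) and Nr1d1 48th (0.657), while Bmal1 was 92nd from the bottom (-0.558) and Nfil3 299th (-0.444). Tef (0.139), Cry2 (0.19) and Per1 (0.0971) were not near either end. The 8 genes nearest to Dbp were Atf7ip, a chromatin regulator (0.872), Mtcl2 (0.793), Ppbp, a platelet chemokine (0.786), Stard9 (0.784), Per2, Samhd1, a nucleotide hydrolase (0.778), Ap4s1 (0.774) and Mocs1, of molybdenum cofactor synthesis (0.768). SD air replicate 1 weighed on this order. Without it r with Dbp was 0.64 for Per2, 0.48 for Atf7ip, 0.259 for Nr1d2, 0.211 for Nr1d1 and 0.135 for Ppbp. It rose to 0.38 for Per1 and 0.363 for Tef, above both Nr1d genes. Cry2 was then at 0.061, Bmal1 at -0.41 and Nfil3 at -0.364. For Bmal1 the 8 nearest were LOC102548047 (0.88), Krt5, a basal cell keratin (0.862), Chpt1 (0.854), Padi1 (0.836), Stmn4 (0.812), Guca1b (0.812), Lpin1, a phosphatidate phosphatase (0.811) and Btbd10 (0.806), and Per2 was 9th from the bottom (-0.763). These are the extremes of 8059 values from 16 arrays and carry no test.

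Other genes of the clock and its outputs were read from a list. Of 22 listed, 13 were on the array and 11 were tested. In SD rats 7 of the 11 were above 0 and 4 below with a median of 0.23 (0.35 without SD air replicate 2), and limma called 0, with 3 at an unadjusted p under 0.05. Over all probe sets 53.4% were above 0 and 8.24% had such a p. Wee1, a cell cycle kinase under clock control, averaged 199.7 ± 76.2 (SD, n = 4) after SO2 against 96 ± 24.9 after air, a difference of 0.90 (SE 0.253, adjusted p = 0.366) that was 0.99 without SD air replicate 2. Hlf, the third PAR bZIP factor, measured 435 ± 41.7 against 334 ± 32 (0.36, SE 0.166, adjusted p = 0.589), and Usp2, a clock-controlled deubiquitinase, 299.9 ± 56.5 against 191 ± 66.5 (0.65, SE 0.304, adjusted p = 0.591). Next in order of p were Csnk1d (0.26), Csnk1e (-0.69) and Bhlhe40 (0.35), the first a casein kinase that acts on Per proteins and the last an E-box repressor. Without SD SO2 replicate 2 Csnk1e was at -0.30 and Csnk1d at 0.16, and without SD SO2 replicate 1 Bhlhe40 was at 0.16. Hlf was at 0.38 and Usp2 at 0.67 without SD air replicate 2. In SH rats 5 of the 11 were above 0 and 6 below (median -0.024), where 53.6% of all probe sets were above 0. Wee1 was at 0.28 (SE 0.253) and Hlf at 0.19 (SE 0.166) there.

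Per1 is also induced by glucocorticoids and by immediate early signals, so genes of those responses are given beside it. Of 12 glucocorticoid-induced genes tested, 4 were above 0 and 8 below in SD rats (median -0.11, or 0.062 without SD air replicate 2), and the smallest p belonged to Cebpb (-0.29) and Angptl4 (-0.56). In SH rats 3 were above 0 and 9 below (median -0.14), led by Mt2A, a metallothionein (0.63, SE 0.19), and Lcn2, a neutrophil and epithelial lipocalin (-0.89, SE 0.312). Of 11 immediate early genes tested, 5 were above 0 and 6 below in SD rats (median -0.11, or 0.016 without SD air replicate 2), led by Nr4a1, a nuclear receptor, at 504.6 ± 70.9 after SO2 against 347 ± 86.2 after air, a difference of 0.54 (SE 0.164, adjusted p = 0.428), and by Klf6 at 0.35. Nr4a1 was at 0.67 and Klf6 at 0.48 without SD air replicate 2. In SH rats 7 were above 0 and 4 below, with Ier2 at -0.70 and Nr4a1 at 0.33. Limma called 0 genes of both lists for SO2 in either strain. At an unadjusted p under 0.05 there were 0 glucocorticoid-induced genes in SD and 2 in SH rats, and 2 and 1 immediate early genes. Of all probe sets, 8.24% in SD and 4.84% in SH rats had such a p, and 53.4% and 53.6% were above 0.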

How the data were processed

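Lung total RNA was hybridised to 16 single-colour arrays with a biotin label. The authors deposited 1 linear intensity per probe set and array; the submitters' processing notes name GCOS, with no version. Trimmed by 2% at each end, array means ran from 500.099 to 500.111, and no rescaling was added.

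After 57 control probe sets were left out of 15923, names came from the platform annotation: 12783 probe sets had 1 gene symbol, 312 several and 2771 none. Of those with 1 symbol, 12748 matched a RefSeq table (GRCr8) by Entrez identifier and 0 changed. The 30% with the lowest mean log2(intensity + 16) were left out. The other 11106 (8060 genes) were fitted by lmFit and trended eBayes (limma 3.58.1, R 4.3.3), with 1 mean per group, 12 residual degrees of freedom and Benjamini-Hochberg adjustment. Calls needed an adjusted p below 0.05. The fit was tested on simulated data. Correlations and figures used Python 3.11.15, and figures matplotlib 3.10.9.

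All members are named, as are the 6 other clock genes of smallest p in SD rats. Also named are the 8 genes most like Dbp and like Bmal1, and the 2 genes of smallest p in each response list. All probe sets of the members are given for SO2 in SD rats, and only some of the dimmer ones in other comparisons. Members, lists, tests and alternatives were chosen with earlier results of these data known. The alternatives were other offsets, quantile normalization, median centring, other filters, covariates (title number, actin ratio, 10th percentile of signal), the replicate number as a block, no trend, only the arrays compared, and each array left out. The number of arrays limits the precision, and 0 of 120 array pairs were identical.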

Additional observations from a re-analysis of the deposited data

Results flagged for a closer look

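In groups of 4 arrays, 4 of 60 groups of clock probe set signals held an array whose gap to its nearest neighbour was large for the group's range (Dixon's test). Chance flags about 1 in 20 groups. Per2 measured 1202 on SH air replicate 3, against 637.9 to 720.9 on the other SH air arrays. Cry2 on the same array measured 579.5, against 386.5 to 416.1. Nfil3 measured 265.4 on SD air replicate 1, against 120.7 to 139.7. The dimmer tested Clock probe set measured 152.2 on SD SO2 replicate 1, against 215.8 to 225.2.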

How the results depend on the processing

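By their brightest probe sets the 10 genes kept the sign of their SD response to SO2 in every alternative that could be fitted (27 or 28 per gene), and 0 became called there. Many of these could not change an SD difference: an SH array left out, other filters, no trend, the replicate block and only the arrays compared. The dimmer tested Clock probe set turned from -0.049 to 0.074 without SD SO2 replicate 1. With the lower 50% of probe sets left out, Bmal1, Nfil3 and Tef were not tested. Counts of called probe sets moved as follows. For SH against SD rats in air the count was 0, and 1 with the actin ratio as a covariate, without an eBayes trend or with no filter, 5 with arrays centred on their medians or an offset of 64, and 0 to 86 with single arrays left out. Leaving out single arrays gave 0 to 3 for SO2 in SD rats, 0 to 1 in SH rats, 0 to 0 for the interaction and 50 to 115 for the strains in SO2 (90 with all arrays). Of the 21 correlations, 2 passed, 1 on deviations from the group means and 0 to 3 without single arrays.

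Signs of the genes' differences, by the brightest probe sets, turned in 17 cases, none of them called, and were kept in the other cases that could be fitted. Those other cases include settings that could not change a difference. With title number as a covariate, the SH against SD difference in air was -0.029 for Clock and 0.27 for Nfil3, and with the 10th percentile as a covariate that in SO2 was -0.012 for Bmal1. Without single arrays, ranges that crossed 0 were, for SO2 in SH rats, -0.31 to 0.019 for Bmal1 and -0.20 to 0.087 for Nr1d1, and, for the interaction, -0.047 to 0.25 for Clock and -0.72 to 0.22 for Nfil3. In air between strains they were -0.024 to 0.10 for Clock and -0.13 to 0.58 for Dbp. In SO2 between strains they were -0.069 to 0.18 for Cry2, -0.11 to 0.27 for Bmal1, -0.0015 to 0.30 for Clock and -0.14 to 0.032 for Nr1d2. The cause was not tested.

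The sample descriptions number the replicates 1 to 4 within each group, except for SH air replicate 1, which has no number of its own there. Same-numbered arrays of different groups had correlations of deviations from -0.433 to 0.151, with 4 of 24 pairs over 0.1. Differently numbered arrays were not compared, so these values cannot tell whether the numbers pair the arrays. With the replicate block, 0 probe sets were called for SO2 in either strain, the interaction and the strains in air, and 86 for the strains in SO2.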
